A study of Mus musculus with 16 samples.

Results

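Very long chain fatty acids are built in the endoplasmic reticulum by a cycle of condensation, reduction, dehydration and a second reduction, and Tecr codes for the enoyl reductase that closes it. The 10 genes described here are Tecr and 9 others of the cycle: the elongases Elovl1, Elovl4, Elovl5, Elovl6 and Elovl7, the ketoreductase Hsd17b12, and the dehydratases Hacd1, Hacd2 and Hacd3. They are 10 of the 52459 genes in the count table and were found there by symbol. Tecr was selected on its difference between genotypes in these same libraries, where earlier work had named it among genes whose values did not overlap, and the other 9 were added as enzymes of its cycle. The differences between genotypes are therefore given as a description. Calls from the fit over all genes are printed only beside the share of all genes called, and support nothing about the 10.

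RNA had been sequenced from stromal cells sorted out of digested bone marrow of Townes sickle mice, as cells without CD45, Ter119 and CD31 and with CD51 and CD140a on their surface. SS mice are homozygous for the human sickle beta globin allele. SA mice have 1 copy of that allele beside 1 normal human one. In the Townes strain human alpha and beta globin genes stand in place of the mouse genes, so both genotypes carry human globins and the SA mice also carry a sickle allele. There were 4 SS and 4 SA libraries, 1 per mouse as numbered in the titles, and no label states the age, sex or treatment of the mice. No wild-type mice were analysed here.

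In each turn of the cycle an ELOVL elongase joins an acyl-CoA to malonyl-CoA, which is the rate-limiting step and the one that sets which chains are extended. HSD17B12 then reduces the 3-ketoacyl-CoA, a HACD dehydratase removes water, and TECR reduces the remaining double bond to give a chain longer by one turn. The products go into sphingolipids, phospholipids and storage lipids, and TECR also acts on a product of sphingosine 1-phosphate breakdown. ELOVL1 extends saturated and monounsaturated chains for sphingolipids, ELOVL5 extends polyunsaturated chains, ELOVL6 turns palmitate into stearate, and ELOVL4 makes the longest chains, in retina, skin and brain.

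Tecr (ENSMUSG00000031708) lies on chromosome 8 of GRCm38, from 83571698 to 83607971 on the minus strand, with 14 annotated transcripts in GENCODE M21. The RefSeq promoter window of Tecr, chr8:83594442-83594741 on GRCm38.p6, runs on the minus strand from 250 bases before the RefSeq start at 83594491 to 50 bases after it. That start lies inside the longer GENCODE span. The sequence is shown because it holds the pentamer CCAAT 3 times, each on the opposite strand and so spelled ATTGG, in capitals:
Tecr promoter: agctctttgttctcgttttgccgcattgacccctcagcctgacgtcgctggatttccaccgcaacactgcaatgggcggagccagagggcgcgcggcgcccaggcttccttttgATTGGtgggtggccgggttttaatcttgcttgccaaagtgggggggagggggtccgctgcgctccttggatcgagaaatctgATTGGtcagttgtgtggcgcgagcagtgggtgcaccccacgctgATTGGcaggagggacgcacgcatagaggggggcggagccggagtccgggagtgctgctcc

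CCAAT was chosen as a motif to count after the Tecr sequence had been read. It was searched in 32851 RefSeq windows of 300 bases, of which 37.4% held it at least once and 3.37% at least 3 times. Of the 10 genes, 6 held it: Tecr, Elovl1, Elovl4, Elovl5, Hacd3 and Hsd17b12. Each copy is shown with its neighbouring bases, read on the gene's strand, so that copies on the gene's strand read CCAAT and those on the other read ATTGG in capitals:
Tecr, first letter 136 bases before the start: cttccttttgATTGGtgggtggccg
Tecr, first letter 54 bases before the start: gagaaatctgATTGGtcagttgtgt
Tecr, first letter 10 bases before the start: ccccacgctgATTGGcaggagggac
Elovl1, first letter 35 bases before the start: ggccagccgcCCAATcagcaggcgc
Elovl4, first letter 25 bases after the start: gggcgaggggATTGGagctgcggca
Elovl5, first letter 71 bases before the start: tcgccccaggATTGGttccaaggcc
Elovl5, first letter 17 bases before the start: ccgggctcggATTGGctggccgcgc
Hacd3, first letter 209 bases before the start: tcatacgccgCCAATccgccctttc
Hsd17b12, first letter 174 bases before the start: cgaaggctaaCCAATaggagacata
Hsd17b12, first letter 134 bases before the start: agagaagtcaCCAATagacacatgg

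The windows of Elovl6, Elovl7, Hacd1 and Hacd2, and the second of the 2 windows of Elovl1, held no such pentamer. The letters GGGCGG, which 35.7% of all windows held, were found in 8 of the 10 genes, with Elovl5 and Elovl6 lacking them. All motifs were searched on both strands. CACGTG, held by 7.15% of all windows, was found in Elovl4, Elovl5 and Hacd3. The motifs TCACNCCAC (1.24% of windows) and TATAAA (13.6% of windows) were found in none of the 10. These are matches of letters in fixed windows, and binding was not measured.

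Depth and sort checks set the frame for the values. Total counts per library ran from 24797857 to 31117007. Expression is given as CPM, counts scaled to library totals that were adjusted for composition by TMM. The sort markers Pdgfra (CD140a) and Itgav (CD51) were at 331 to 481 and 389 to 821 CPM in SS libraries, against 169 to 476 and 252 to 427 CPM in SA libraries. Ptprc, which codes for the CD45 that the sort selected against, was at 49.7 to 499 CPM in SS libraries and 125 to 748 CPM in SA libraries. Pecam1 (CD31) was at 0.833 to 31.4 CPM in SS libraries and 4.23 to 44.9 CPM in SA libraries. Summed over 15 leukocyte genes, all of them counted in every library, the level was 2905, 505, 1302 and 357 CPM in SS replicates 1 to 4, against 4283, 4894, 1579 and 819 CPM in SA replicates 1 to 4. The genotypes overlapped in this sum (two-sided exact permutation test over 70 arrangements, p = 0.200, adjusted over 10 marker lists 0.381). SS replicate 2 had 57347 counts of Xist and 12 of Ddx3y, while the other 7 libraries had 57 to 420 of Xist and 2282 to 4436 of Ddx3y. By these genes SS replicate 2 was female and the other 7 male, so sex was uneven between genotypes. The mouse globin genes Hba-a1 and Hbb-bt had 86 to 359 and 9 to 20 counts in SS libraries and 117 to 482 and 52 to 153 counts in SA libraries. They are replaced in both genotypes, so they do not check SS against SA. One of the 2 sequencing lanes of SS replicate 4 has a title that says SS while its remaining fields say SA, and the library was kept in SS by the title. Numbers that look like dates in the titles put all SA libraries in one set and the SS libraries in others, with SS replicate 2 apart. Whatever these numbers stand for cannot be told apart from genotype.

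Tecr was lower in SS libraries. It stood at 60.6, 55.0, 41.9 and 42.1 CPM in SS replicates 1 to 4, against 95.3, 167, 72.6 and 108 CPM in SA replicates 1 to 4. The highest SS library was below the lowest SA library, and SA replicate 2 stood above all others. The means were 49.9 ± 9.40 CPM in SS and 111 ± 40.2 CPM in SA (SD, n = 4 each), from 1186 to 4806 counts per library. The log2 fold change of SS over SA was -1.15 with a standard error (SE) of 0.28, which puts SS at 0.450 times SA. Leaving out each library in turn gave -1.32 (without SA replicate 3) to -0.88 (without SA replicate 2). The value was -0.94 with the leukocyte level of each library as a covariate, and -0.97 without the 3 libraries highest in leukocyte genes, which are SS replicate 1 and SA replicates 1 and 2. In bulk RNA fewer cells that express a gene and less RNA per cell cannot be told apart.

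All 10 genes passed the filter on low counts that left 17316 genes to be fitted with edgeR. By its quasi-likelihood test with Benjamini-Hochberg adjustment 0 of the 10 were called at 0.05, where the share called of all genes was 0%, and limma-voom called 0 genes. The smallest edgeR adjusted p over all genes was 0.148. Of the 10, 1 gene, Tecr, had an unadjusted p under 0.05, beside 6.98% of all genes tested. DESeq2 called 319 of 19321 genes, or 1.65%, and Tecr was 1 of them. Of the 10, Tecr alone had every SS library below every SA library, beside 1.55% of all genes tested, and 3.91% of all genes were without overlap in either direction. Nothing is read from these counts, since the same contrast chose Tecr.

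**Figure D1:**
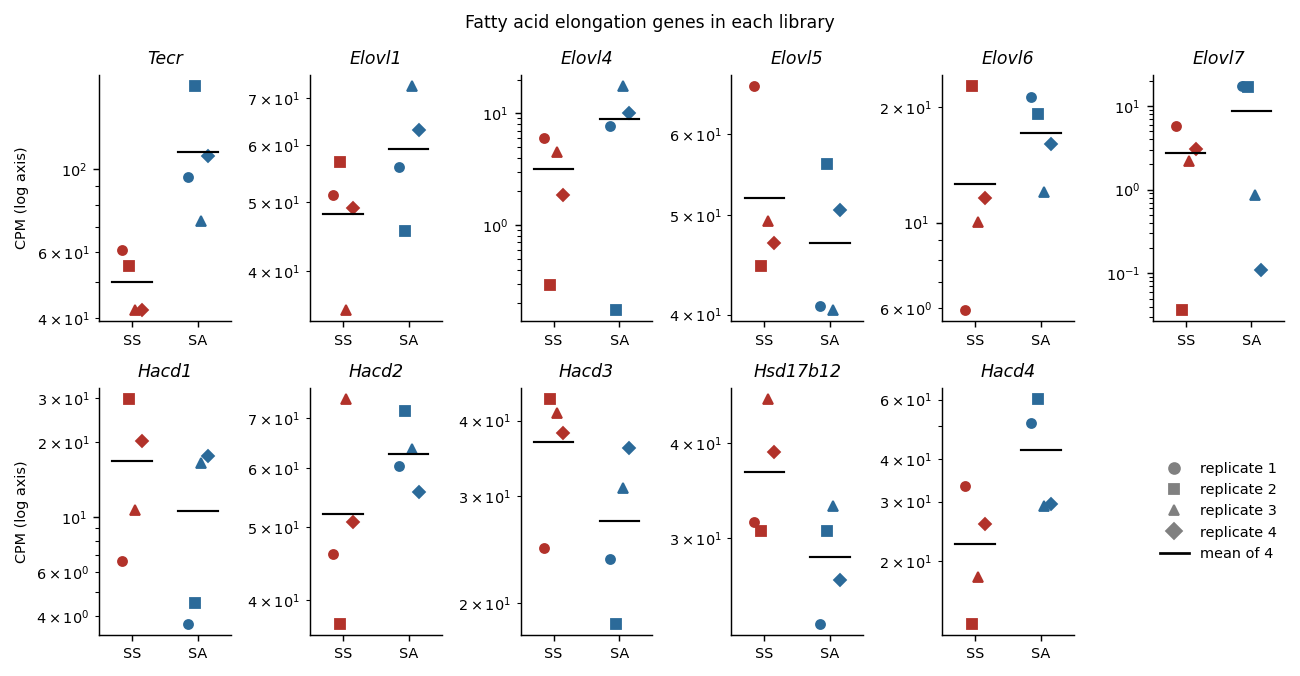
CPM on log axes that differ between panels, for the 10 genes and the further dehydratase gene Hacd4 in each library, SS left and SA right, with symbols for replicate numbers and a bar for the mean of 4. Tecr is without overlap, at 41.9 to 60.6 CPM in SS and 72.6 to 167 CPM in SA, and the other panels overlap.

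Among the elongases, Elovl1 and Elovl5 carried most of the transcripts. Elovl1 stood at 51.2, 56.8, 35.2 and 49.1 CPM in SS replicates 1 to 4, against 56.0, 45.6, 72.8 and 63.04 CPM in SA replicates 1 to 4. The ranges overlapped, with SS replicate 3 lowest and SA replicate 3 highest (log2 fold change -0.30, SE 0.25). Its last exon shares 53 bases with Cdc20 on the other strand, and since no source used here states whether counting used strand, reads there cannot be assigned. Elovl5 stood at 66.9, 44.6, 49.4 and 47.01 CPM in SS libraries, against 40.8, 56.1, 40.4 and 50.6 CPM in SA libraries. SS replicate 1 was the highest, and the fold change of 0.15 (SE 0.24) was 0.0022 without it.

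Elovl6 had one SS library apart from the rest. It stood at 5.92, 22.7, 10.0 and 11.6 CPM in SS replicates 1 to 4, against 21.2, 19.2, 12.0 and 16.1 CPM in SA replicates 1 to 4. SS replicates 1, 3 and 4 were below every SA library and SS replicate 2, the library high in Xist, was above every one. The log2 fold change was -0.44 (SE 0.46), and 0.07 without the 3 libraries highest in leukocyte genes.

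Elovl4 and Elovl7 were low and uneven between mice. Elovl4 stood at 5.99, 0.290, 4.52 and 1.87 CPM in SS replicates 1 to 4, against 7.71, 0.174, 17.6 and 10.1 CPM in SA replicates 1 to 4. Replicate 2 of each genotype was near 0, with 8 counts in the SS and 5 in the SA library, and the log2 fold change of -1.49 had an SE of 1.12. Elovl7, an elongase of saturated chains, stood at 5.74, 0.0362, 2.23 and 3.10 CPM in SS replicates 1 to 4, against 17.4, 16.6, 0.870 and 0.110 CPM in SA replicates 1 to 4. The 2 SA libraries high in leukocyte genes held nearly all of the SA signal. Its log2 fold change was -1.66 (SE 1.41), but 1.35 with the leukocyte covariate and 1.86 without the 3 libraries, so its direction depends on them. The elongase genes Elovl2 and Elovl3 did not pass the filter, with at most 0.0368 and 0.106 CPM in any library.

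Hsd17b12, the ketoreductase, averaged 36.7 ± 7.09 CPM in SS and 28.4 ± 4.44 CPM in SA (SD, n = 4 each). It stood at 31.5, 30.6, 45.8 and 39.0 CPM in SS libraries, against 23.2, 30.7, 33.1 and 26.4 CPM in SA libraries. SS replicates 3 and 4 were above every SA library, and SS replicates 1 and 2 were within the SA range (log2 fold change 0.37, SE 0.27). Without each library in turn and under every other alternative the value stayed between 0.25 and 0.45.

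The dehydratases differed among themselves in direction. Hacd1, known from work on muscle, stood at 6.62, 29.8, 10.7 and 20.1 CPM in SS replicates 1 to 4, against 3.72, 4.52, 16.5 and 17.6 CPM in SA replicates 1 to 4. The 3 libraries highest in leukocyte genes were the 3 lowest in Hacd1, and the log2 fold change of 0.67 (SE 0.64) was -0.39 with the leukocyte covariate. Hacd2 stood at 46.01, 37.2, 74.2 and 50.8 CPM in SS libraries and 60.3, 71.4, 63.6 and 55.6 CPM in SA libraries (log2 fold change -0.27, SE 0.25). SS replicate 3 was the highest of all 8 and the other 3 SS libraries were below every SA library.

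Hacd3 stood at 24.7, 43.4, 41.2 and 38.1 CPM in SS libraries and 23.7, 18.5, 30.96 and 36.0 CPM in SA libraries (log2 fold change 0.43, SE 0.31). SS replicate 1 was within the SA range and the other SS libraries were above it. With the leukocyte covariate the value was 0.08. Hacd4, a further dehydratase gene outside the 10, stood at 33.3, 13.1, 18.0 and 25.9 CPM in SS libraries, against 51.2, 60.2, 29.2 and 29.5 CPM in SA libraries (log2 fold change -0.91, SE 0.38). Only SS replicate 1 reached into the SA range. Hacd4 shares 746 exon bases with Focad on the other strand.

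Of the 10 genes, 6 were lower and 4 higher in SS, which is 60.0% lower, beside 51.02% of all genes tested. Their median log2 fold change was -0.29, against -0.01 over all genes, and 0.06 without the 3 libraries highest in leukocyte genes. Their spread was wide, from -1.66 for Elovl7 to 0.67 for Hacd1.

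**Figure D2:**
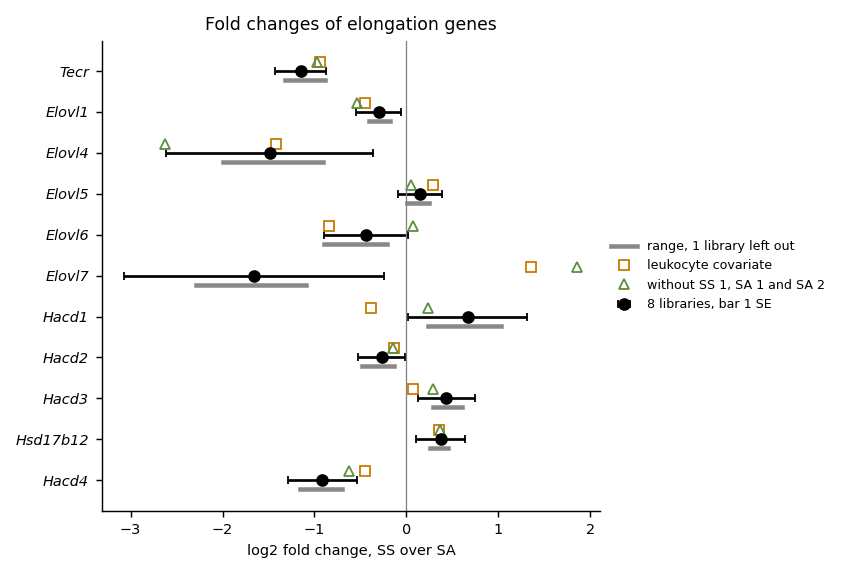
Log2 fold change of SS over SA for each gene with 1 SE, the range over fits that leave out 1 library, and the values with a leukocyte covariate and without 3 libraries. Tecr stays between -1.32 and -0.88, whereas Elovl7 goes to 1.35 and 1.86 in the leukocyte fits and Hacd1 to -0.39 with the covariate.

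Levels of different genes were compared per kilobase of exon. Tecr had the highest level of the cycle in both genotypes, at 22.8 ± 4.29 CPM per kilobase in SS and 50.6 ± 18.4 in SA (SD, n = 4 each). Over all 8 libraries, 94.7% of the coding genes tested were below its level. Elovl1 came next, at 17.6 ± 3.37 CPM per kilobase in SS and 21.8 ± 4.21 in SA. Tecr was above Elovl1 in each of the 4 SS and 4 SA libraries. The ranges of these neighbours overlapped among SS libraries and did not overlap among SA libraries.

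In SS the order went on with Hsd17b12, Elovl5, Hacd2 and Hacd3, at 15.3 ± 2.95, 14.8 ± 2.88, 13.9 ± 4.21 and 13.6 ± 3.10 CPM per kilobase. In SA it went on with Hacd2, Elovl5, Hsd17b12 and Hacd3, at 16.7 ± 1.77, 13.3 ± 2.19, 11.8 ± 1.85 and 10.1 ± 2.86 CPM per kilobase. Each of these overlapped with the next in the order. Within libraries, Hacd2 was above Elovl5 in all 4 SA libraries. The other neighbours among them kept their order in 2 or 3 libraries of a genotype, so their order is not resolved. Hacd1 was at 7.93 ± 4.88 in SS and 4.99 ± 3.53 in SA, and Elovl6, Elovl4 and Elovl7 had means of 0.692 to 1.95 in SS and 2.18 to 2.94 in SA. The order was the same when the length of the longest transcript was used.

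Summed by step, the 4 parts of the cycle were as follows. Tecr stood at 27.7, 25.1, 19.1 and 19.2 CPM per kilobase in SS libraries and 43.5, 76.2, 33.2 and 49.4 in SA libraries. The summed elongases stood at 42.1, 37.2, 30.6 and 34.6 CPM per kilobase in SS and 42.3, 39.8, 46.1 and 43.4 in SA, and these overlapped. The summed dehydratases, Hacd4 included, were at 38.8 ± 6.25 in SS and 38.1 ± 3.16 in SA, and Hsd17b12 at 15.3 ± 2.95 in SS and 11.8 ± 1.85 in SA (SD, n = 4 each).

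Ratios between steps were taken within each library. The ratio of Tecr to Hsd17b12 per kilobase was 2.11, 1.97, 1.01 and 1.19 in SS libraries, against 4.52, 5.97, 2.41 and 4.51 in SA libraries. The ratio of Tecr to the summed elongases was 0.657, 0.676, 0.625 and 0.556 in SS, against 1.03, 1.91, 0.720 and 1.14 in SA. Neither ratio overlapped between genotypes, and both contain the Tecr values that chose it. The ratio to the summed dehydratases did overlap, at 0.448 to 0.940 in SS and 0.819 to 2.06 in SA. Without Tecr, the ratio of Hsd17b12 to the summed elongases was 0.311, 0.342, 0.621 and 0.468 in SS and 0.227, 0.320, 0.299 and 0.253 in SA, with SS replicate 1 alone within the SA range.

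Within the elongases, Elovl1 made up 48.8% ± 6.46 of the transcripts per kilobase in SS and 50.4% ± 6.84 in SA. Elovl5 made up 40.9% ± 5.57 in SS and 31.4% ± 6.72 in SA (SD, n = 4 each), with ranges that overlapped. Within the dehydratases, Hacd4 made up 16.7%, 4.63%, 6.25% and 9.35% in SS and 22.2%, 24.1%, 10.7% and 10.7% in SA, so SS replicate 1 alone lay within the SA range.

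**Figure D3:**
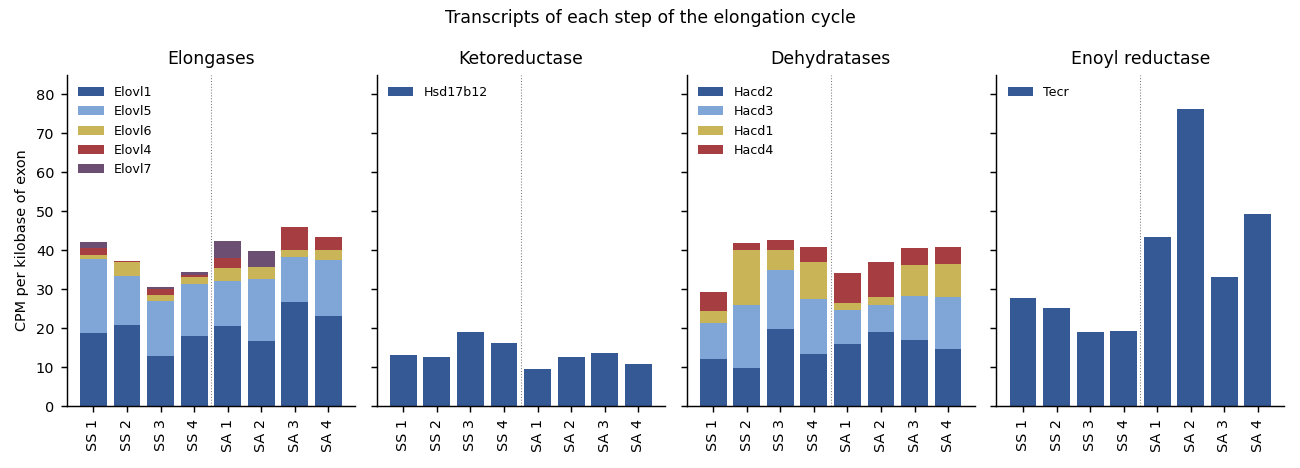
CPM per kilobase of exon in each library, stacked by gene, for the 4 steps of the cycle, with SS left of the dotted line. The Tecr bars of SS libraries, at 19.1 to 27.7, are all below those of SA libraries, at 33.2 to 76.2, while the stacks of the dehydratases are at 29.4 to 42.7 in SS and 34.2 to 40.8 in SA.

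For Elovl7, Hacd4, Hacd1 and Hacd3, the 3 libraries highest in leukocyte genes were at one end of their genotype. Among the other libraries the levels did not all follow the leukocyte sum. SS replicate 4, with 357 CPM of leukocyte genes, had more Elovl7 (3.10 CPM) than SS replicate 3 (2.23 CPM), with 1302 CPM. SS replicate 1, with 2905 CPM of leukocyte genes, was the SS library highest in Elovl7 (5.74 CPM) and Hacd4 (33.3 CPM) and lowest in Hacd1 (6.62 CPM) and Hacd3 (24.7 CPM). SA replicates 1 and 2, with 4283 and 4894 CPM, likewise were the SA libraries highest in Elovl7 and Hacd4 and lowest in Hacd1 and Hacd3. Summed stromal genes were at 24880, 41540, 33650 and 27610 CPM in SS replicates 1 to 4 and 22800, 21460, 49820 and 41230 CPM in SA replicates 1 to 4. They were lowest in the same 3 libraries.

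For Tecr the values beside the leukocyte sums were these. In SS replicates 1 to 4, leukocyte sums of 2905, 505, 1302 and 357 CPM stood beside 60.6, 55.0, 41.9 and 42.1 CPM of Tecr. In SA replicates 1 to 4, sums of 4283, 4894, 1579 and 819 CPM stood beside 95.3, 167, 72.6 and 108 CPM. Within each genotype the library with most Tecr was also the highest in leukocyte genes, with 60.6 CPM in SS replicate 1 and 167 CPM in SA replicate 2. The B cell sum was over 10 genes, 7 of them counted in every library. It stood at 405, 405, 416 and 396 CPM in SS libraries and 1548, 1006, 594 and 502 CPM in SA libraries. Like Tecr, it was without overlap (exact permutation test, two-sided, p = 0.0286, the smallest that 70 arrangements give, adjusted 0.286). All 10 B cell genes were lower in SS (median log2 fold change -3.13, and -1.42 with the leukocyte covariate). The smallest difference among them was -0.05, for Ebf1. In SS libraries the B cell sum stayed at 396 to 416 CPM while the leukocyte sum ran from 357 to 2905 CPM. Which cells the B cell sum came from was not tested. The adipocyte sum was 1558 to 4507 CPM in SS and 892 to 2134 CPM in SA (exact permutation test, adjusted p = 0.381), with Lep at 0 in every library. Neutrophil genes summed to 1316 to 16240 CPM in SS and 5874 to 33830 CPM in SA. Megakaryocyte genes summed to 5.58 to 30.9 CPM in SS and 6.70 to 313 CPM in SA. Macrophage genes went the other way, with 7 of 8 higher in SS, and summed to 1050 to 2257 CPM in SS and 1020 to 1421 CPM in SA. Erythroid genes, 2 of 8 higher in SS, summed to 243 to 852 CPM in SS and 673 to 944 CPM in SA. With the leukocyte covariate the Tecr difference was -0.94, against -1.15 without it. The part of B cell, neutrophil, megakaryocyte, macrophage or erythroid RNA in the Tecr difference was not tested.

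**Figure D4:**
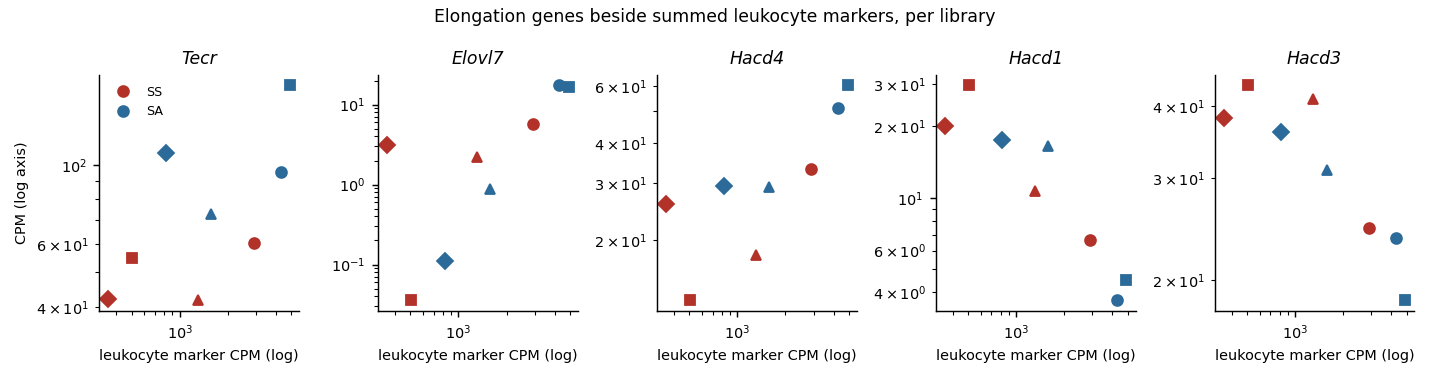
CPM of 5 genes against the summed CPM of 15 leukocyte genes in each library, both on log axes, SS in red and SA in blue, with the symbols of the plot of levels by library. Elovl7 and Hacd4 are high and Hacd1 and Hacd3 low in the 3 libraries with at least 2905 CPM of leukocyte genes. Tecr is at 41.9 to 60.6 CPM in SS libraries and 72.6 to 167 CPM in SA libraries.

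The 4 nearest tested genes, 2 on each side of Tecr, overlapped between genotypes. Of all genes tested, 3.91% were without overlap in either direction, so overlap sets these neighbours apart from few genes. Ndufb7, which codes for a subunit of a respiratory chain complex and whose span lies 71 bases from that of Tecr, stood at 17.8, 38.4, 19.5 and 21.2 CPM in SS libraries and 19.4, 33.6, 22.2 and 27.4 CPM in SA libraries (log2 fold change -0.08, SE 0.35). Dnajb1, a heat shock protein gene 221 bases from the span, was at 82.1 to 108 CPM in SS and 77.5 to 119 CPM in SA (0.12, SE 0.21). Scoc and Gipc1, farther away, had log2 fold changes of 0.09 (SE 0.29) and 0.35 (SE 0.62). The antisense gene D830024N08Rik lies within the span, shares no exon base with Tecr, and was at 0.355 to 1.94 CPM in SS and 0 to 8.60 CPM in SA. Gm18001 and Gm45823, also within it, were listed at no more than 0.347 CPM.

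Likeness to Tecr was measured over the 8 libraries among the 11567 genes that averaged 5 CPM or more, as the root mean square difference of log2 CPM after centring each gene. A gene that did not vary would differ from Tecr by 0.652, and the median gene differed by 0.872. The 5 most alike were Alas1 (0.199), which codes for an enzyme of haem synthesis, Ncaph (0.206), a condensin subunit gene, Herpud1 (0.238), a gene of the unfolded protein response, Agap3 (0.242) and Hells (0.249), a chromatin remodelling gene. With each gene centred within its genotype, so that the difference between genotypes is removed, Herpud1 came first (0.0994) and Alas1 was at rank 7, while Agap3 and Hells were at ranks 100 and 138. Nelfb, Gm5526, Gpkow and Strada were the next 4 in that order.

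Herpud1 stood at 49.3, 39.7, 37.7 and 30.7 CPM in SS libraries and 55.1, 99.6, 44.5 and 59.7 CPM in SA libraries, overlapping only through SS replicate 1 and SA replicate 3. Of the other genes of the cycle, Hacd4 ranked 218 in likeness to Tecr, with a difference of 0.456. Hacd2 ranked 1579 (0.619), Elovl1 1795 (0.634), Elovl6 1913 (0.642), and Elovl7 11452 (2.49) of 11567. The differences of Hacd2, Elovl1 and Elovl6 are near the 0.652 of a gene that did not vary.

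Around the cycle, 78 of 90 genes in 9 lists of connected lipid pathways passed the filter. Of these, 40 were higher and 38 lower in SS, with a median log2 fold change of 0.03. edgeR called 0 of them, 4 had an unadjusted p under 0.05 (5.13%, beside 6.98% of all genes), DESeq2 called 1 (beside 1.65% of all genes it tested), and 2 were without overlap (2.56%, beside 3.91% of all genes). Leaving out 1 library changed the sign of the median in 8 of the 9 lists. The lists were drawn up with earlier results of these libraries known.

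Upstream, the acyl-CoA synthetases and fatty acid transport proteins, which activate chains for elongation, had 4 of 10 tested genes higher and 6 lower. Their median of -0.12 turned to 0.15 with the leukocyte covariate and to 0.23 without the 3 libraries highest in leukocyte genes. Slc27a4, an acyl-CoA synthetase of very long chains, was the gene that DESeq2 called. It stood at 8.42, 13.3, 10.95 and 11.6 CPM in SS replicates 1 to 4, against 25.5, 45.4, 18.6 and 23.9 CPM in SA replicates 1 to 4. As for Tecr, every SS library was below every SA library and SA replicate 2 was the highest (log2 fold change -1.35, SE 0.37, -0.83 without the 3 libraries highest in leukocyte genes). Acsl1, the synthetase gene with the highest mean CPM, stood at 125, 24.1, 37.6 and 85.5 CPM in SS and 173, 166, 25.3 and 40.6 CPM in SA, and its log2 fold change of -0.57 (SE 0.66) was 0.51 with the leukocyte covariate. Acsl4 was at 59.4 to 84.8 CPM in SS and 70.4 to 73.9 CPM in SA.

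De novo synthesis, which supplies palmitate, had 9 of 14 genes higher and 5 lower (median 0.14, which turns to -0.07 with the leukocyte covariate). Fasn, the fatty acid synthase, was at 26.8 to 52.9 CPM in SS and 25.6 to 45.4 CPM in SA (log2 fold change 0.14, SE 0.30). Acly, which makes cytosolic acetyl-CoA, was at 24.8 to 45.2 CPM in SS and 33.4 to 71.9 CPM in SA (-0.55, SE 0.32). All 5 desaturases tested had values above 0 (median 0.05), and their median was -0.30 with the leukocyte covariate. Scd1, which makes oleate, stood at 97.2, 66.0, 179 and 264 CPM in SS replicates 1 to 4 and 98.2, 79.1, 206 and 203 CPM in SA replicates 1 to 4. It was lowest in replicates 1 and 2 of both genotypes.

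Fads3 was at 65.1 to 119 CPM in SS and 23.5 to 74.0 CPM in SA (0.74, SE 0.34). The electron donors that serve desaturation and elongation had 4 of 7 genes higher and 3 lower (median 0.10). Por, the cytochrome P450 reductase, was at 33.2 to 50.9 CPM in SS and 14.4 to 43.8 CPM in SA (0.54, SE 0.34). Cyb5r3, the cytochrome b5 reductase, was at 58.0 to 103 CPM in SS and 33.2 to 148 CPM in SA.

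Downstream, ceramide and sphingolipid synthesis had 4 of 12 genes higher and 8 lower (median -0.16). Ugcg, the glucosylceramide synthase, went the other way from Tecr, at 155, 215, 136 and 76.6 CPM in SS libraries and 66.1, 94.7, 50.5 and 69.8 CPM in SA libraries (log2 fold change 1.05, SE 0.31). SS replicate 4 lay within the SA range and the other 3 were above it. Degs1, the dihydroceramide desaturase, was at 78.0 to 127 CPM in SS and 120 to 168 CPM in SA (-0.39, SE 0.21). Breakdown of sphingosine 1-phosphate, whose last steps use TECR, had 3 of 5 genes higher and 2 lower (median 0.13). Sgpl1, the lyase, was at 51.3 to 77.6 CPM in SS and 33.4 to 97.8 CPM in SA. Sphk2, a kinase that makes the substrate, stood at 12.9, 6.55, 9.79 and 11.2 CPM in SS and 23.2, 25.1, 8.97 and 20.9 CPM in SA (-0.95, SE 0.43), with SA replicate 3 among the SS values.

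Peroxisomal oxidation of very long chains had 5 of 10 genes higher and 5 lower (median 0.07). Scp2, named after its values were seen, was without overlap by a narrow margin, at 46.4 to 65.0 CPM in SS and 33.3 to 46.1 CPM in SA (0.32, SE 0.24). The acyltransferases of phospholipid remodelling had 4 of 12 genes higher and 8 lower (median -0.14), with Agpat3 at 51.6 to 84.2 CPM in SS and 25.2 to 52.1 CPM in SA (0.73, SE 0.29). Of the 3 relatives of TECR tested, the TECR-like gene Tecrl and the steroid reductase gene Srd5a3 had log2 fold changes of 1.54 and 0.51, and the steroid reductase gene Srd5a1 one of -1.20. Their median of 0.51 was -0.37 with the leukocyte covariate, -0.60 without SS replicate 3 and 1.23 without SA replicate 1. Srd5a3, which acts in dolichol synthesis, reached 104 CPM in the third SS library and 71.2 CPM in the first SA library. It was at 10.1 to 23.8 CPM in the other 6 libraries. Srd5a1 was at 24.6 CPM in SA replicate 2, 0.827 to 3.13 CPM in the other SA libraries and at most 4.97 CPM in SS. The log2 fold change of Srd5a1 had an SE of 1.02 and turned to 0.82 without SA replicate 2. It was 0.74 without the 3 libraries highest in leukocyte genes, but -0.58 with the leukocyte covariate and -1.605 without SA replicate 1.

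**Figure D5:**
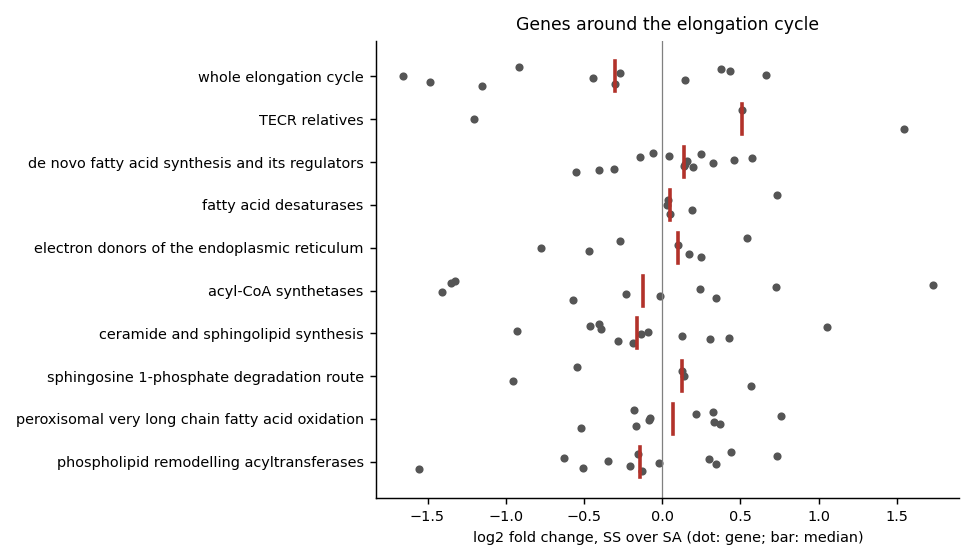
Log2 fold change of SS over SA for each tested gene of the cycle and of 9 connected lists, with 1 dot per gene and a bar at the median. The medians lie between -0.30 for the cycle with Hacd4 and 0.51 for the 3 relatives of TECR (-0.37 with the leukocyte covariate), and each list except the 5 desaturases has genes on both sides of 0.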

How the data were processed

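The deposited table holds raw counts by symbol, with 1 column for the 2 lanes of each mouse. The tools listed are STAR, featureCounts, DESeq2 and bcl2fastq, and the builds GRCm38 and mm10, per the submitters' processing notes. No source used here states roles, versions, annotation or strand. Nothing beyond titles says that libraries came from separate mice, so p-values measure the spread between libraries.

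Here counts were fitted with edgeR 4.0.16 in R 4.3.3 (filterByExpr, TMM, robust quasi-likelihood F test) over 17316 genes, with Benjamini-Hochberg adjustment and a threshold of 0.05, after checks on simulated data. SE is the fold change over the root of F. Alternatives were DESeq2 1.42.0, limma-voom 3.58.1, other scalings, no filter, a leukocyte covariate, a replicate block and left-out libraries. Log2 CPM used a prior count of 2. Exon lengths and positions are from GENCODE M21 on GRCm38, promoters from RefSeq GRCm38.p6.

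The genes and lists were chosen with earlier results of these data known. Named are all 10 genes, Elovl2, Elovl3 and Hacd4, of each list the 2 genes with the highest mean and the one with the smallest p (examples are printed), 2 neighbours on each side of Tecr and overlapping genes, the 5 most alike, and sort markers.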

Additional observations from a re-analysis of the deposited data

Results flagged for a closer look

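The summed CPM of 7 endothelial marker genes in SS libraries had 1 library far from the others: 106 CPM was found in SS replicate 1 and 12.5 to 26.2 CPM in SS replicates 2 to 4. SA libraries were at 13.0 to 78.8 CPM. It was 1 of 42 groups of 4 libraries examined for such a gap, and chance flags about 1 group in 20. None of the 10 genes of the cycle was flagged in either genotype.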

How the results depend on the processing

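edgeR called 0 genes, and also 0 with the replicate block, RLE factors, library totals, the leukocyte covariate, limma-voom or without the 3 libraries highest in leukocyte genes. DESeq2 called 319, and edgeR without the low-count filter called 5 (Dclk1, Dkk3, Fndc1, Gzme and Mmp11, named after their values were seen). Leaving out each library in turn gave 0 to 1, the 1 being Fndc1 without SS replicate 1. The cause of these differences was not tested. Replicate numbers are not said to pair mice: same-numbered libraries correlated at 0.22, -0.15, -0.02 and 0.14 in their deviations, 3 of 8 correlated best with their own number, and the block called 0 genes.

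Each of the 10 genes was refitted under 16 alternatives. The sign held throughout for 7, Tecr among them (-1.32 to -0.88), and turned for Elovl6 (to 0.07 without the 3 libraries), Elovl7 (to 1.35 with the covariate and 1.86 without the 3 libraries) and Hacd1 (to -0.39 with the covariate). Of the 160 values, 2, both of Elovl7, moved by more than 1 SD between replicates. Counts of 5 to 8 reads for Elovl4 in 2 libraries, and 1 for Elovl7 in SS replicate 2, limit their folds.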
